A study of Mus musculus with 16 samples.

Results

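The comparison described here set untreated KPC1199 cells carrying a guide against Sin3B (Sin3Bsg1) beside untreated KPC1199 cells carrying a control guide (sgCtrL). KPC1199 is a mouse pancreatic ductal adenocarcinoma (PDAC) line that was grown from a spontaneous tumor of KPC mice, a model with Pdx-driven Cre and mutant Trp53, so that both groups shared this background. The members were chosen by their labels alone, and they are 4 of the 16 RNA-seq libraries of the study, 2 for sgCtrL and 2 for Sin3Bsg1. Both groups had received a lentivirus with Cas9 and a single guide, the non-targeting control guide in sgCtrL and the Sin3B guide in Sin3Bsg1, and had been selected with puromycin and kept in DMEM with serum and antibiotics. The methods do not say whether the knockout cells were a clone or a mixed population, and a single Sin3B guide was sequenced, so an effect of the guide or of the line that carried it cannot be told apart from the loss of Sin3B. The question was which genes depend on Sin3B in tumor cells in culture, before any cytokine was added. Of the second experiment, in which IFNγ was tested on 12 libraries, the 6 libraries with no cytokine were compared, 3 for each of the same guides, and the IFNγ libraries entered the fit but no comparison.

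SIN3B is a scaffold protein without a DNA-binding domain of its own. It holds histone deacetylases together with proteins that read or bind chromatin, and it is brought to promoters by repressors such as REST and the Mad family partners of Max. SIN3 complexes remove acetyl groups from histones and so limit transcription, and SIN3B is known for its part in the silencing of cell-cycle genes in resting cells. Cells of ductal pancreatic tumors stand between a gland-like state with keratins, mucins and E-cadherin and a mesenchymal state with Snail family repressors and matrix genes.

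The guide is shown because it says where the knockout was made. Its target and the adjoining PAM, in capitals, read as follows on the + strand of GRCm39.
Sin3Bsg1: tggctcccgctggggtcgttCGG
This site lies at chr8:73449982-73450004 and matched the genome at 1 place. It is inside Sin3b (chr8:73449880-73484833, + strand), in exon 1 of the 19 exons of the canonical transcript, and it is coding sequence, with the Cas9 cut after base 61 of the reading frame. Of the 30 annotated transcripts, 25 have an exon there. Sin3b (ENSMUSG00000031622) was listed at 88.6 and 83.4 CPM (counts per 1000000 counts, scaled with TMM) in the sgCtrL libraries and at 36.5 and 34.1 CPM in the Sin3Bsg1 libraries. Both Sin3Bsg1 libraries were thus below both sgCtrL libraries, with a log2 fold change of -1.28 (SE 0.049, edgeR adjusted p = 1.19e-11), and 41.1% of the control level remained. The reads were counted over the whole gene, so this value shows less transcript and says nothing of the protein. According to the methods, edited lines were checked for knockout by western blot, by amplicon sequencing of the target or by both. A further Sin3B guide was used in other assays of the study but in none of these libraries.

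Total counts ran from 29683181 to 32311721 in the 4 libraries, and the biological coefficient of variation between the replicates was 2.84%. Nothing in the labels says that the replicates came from separate cultures, so the p-values measure the spread between these libraries, which may be technical. Of 14589 genes tested, 4543 had an adjusted p under 0.05, 2210 of them (15.1%) higher in Sin3Bsg1 and 2333 (16.0%) lower. DESeq2 put 1465 genes higher and 1591 lower at the same threshold. Most of these differences were small. The median size was 0.27 on the log2 scale, and 75.4% of the called genes changed by less than 1.5-fold. At 1.5-fold or more 634 genes (4.35%) were higher and 482 (3.30%) lower, and 62 were higher and 38 lower by 4-fold or more. The groups did not overlap for 9238 genes (63.3%). The genes higher by 1.5-fold had a summed TPM (transcripts per 1000000, which takes gene length into account) of 9820 in sgCtrL and 19000 in Sin3Bsg1, whereas the genes lower by 1.5-fold went from 8980 to 5020. The 3648 genes with the lowest TPM held 268 of the genes higher by 1.5-fold and the 3647 genes with the highest held 57.

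**Figure D1:**
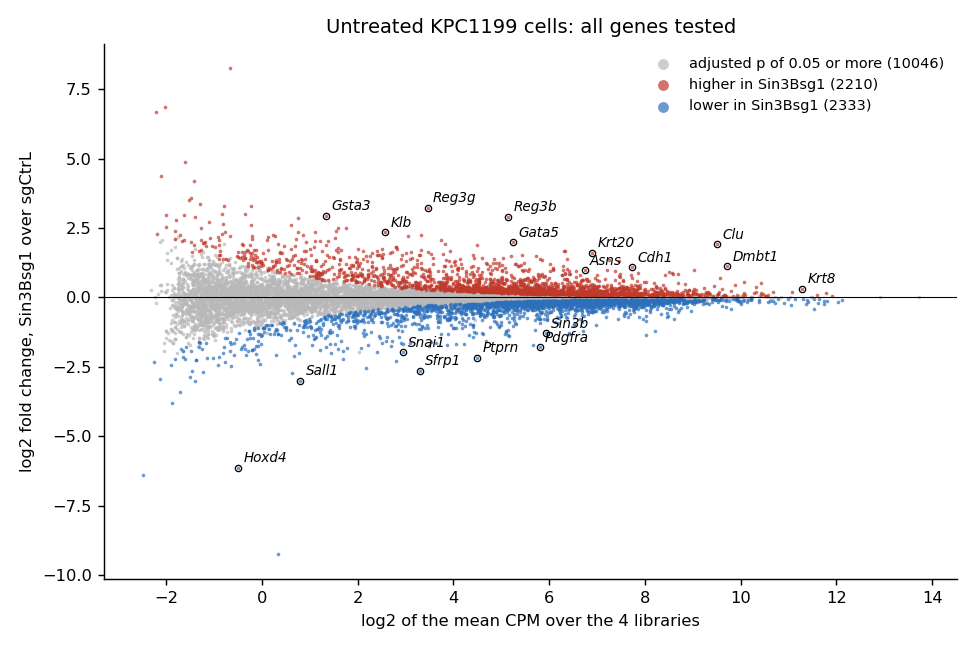
The log2 fold change of Sin3Bsg1 over sgCtrL is plotted against the log2 of the mean CPM over the 4 libraries, with 1 point for each of the 14589 genes tested. Red points are the 2210 genes higher in Sin3Bsg1 and blue points the 2333 lower genes at an adjusted p under 0.05, and circles mark genes named in the text, with Reg3g at 3.23 and Sfrp1 at -2.64.

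The gene lists below were chosen with earlier results of these data known. Their shares therefore describe the lists and do not test them. The secretory genes of gland and gut epithelium had the highest median change among the lists. Of the 23 tested genes in a list of mucins, Reg lectins and goblet or pit cell products, 16 (69.6%) were higher and 0 lower past the threshold (the lowest was at -0.77 on the log2 scale), against 15.1% and 16.0% of all genes tested. Their median log2 fold change was 0.99, against 0.002 over all genes. Reg3g and Reg3b encode secreted lectins that bind bacteria and are made in large amounts in an inflamed pancreas. Reg3g was listed at 1.95 and 2.28 CPM in sgCtrL and at 18.9 and 20.8 CPM in Sin3Bsg1, a log2 fold change of 3.23 (SE 0.13, edgeR adjusted p = 1.88e-11). Reg3b was listed at 9.24 and 7.38 CPM in sgCtrL and at 62.8 and 62.1 CPM in Sin3Bsg1, a log2 fold change of 2.91 (SE 0.079, adjusted p = 1.92e-13). The groups were far apart for both lectins, which resemble each other in sequence, so that reads could have been split between them. Dmbt1, a secreted scavenger receptor glycoprotein of gut and glands, had much more transcript to begin with, at 531.5 and 521.6 CPM in sgCtrL and 1139 and 1153 CPM in Sin3Bsg1, a log2 fold change of 1.12 (SE 0.018, adjusted p = 7.10e-16). Lgals4, which encodes the gut lectin galectin-4, was at 348.2 ± 0.607 CPM in sgCtrL and at 693.5 ± 13.5 CPM in Sin3Bsg1 (SD, n = 2), a rise of 0.99 on the log2 scale. The membrane mucin Muc1 rose from 43.5 ± 0.841 to 91.55 ± 0.103 CPM, and Muc4, another membrane mucin, rose by 1.70 on the log2 scale at a low level of 4.44 CPM in Sin3Bsg1. Summed over the 39 genes of the list, TPM were 939 and 925 in sgCtrL and 2000 and 2050 in Sin3Bsg1.

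**Figure D2:**
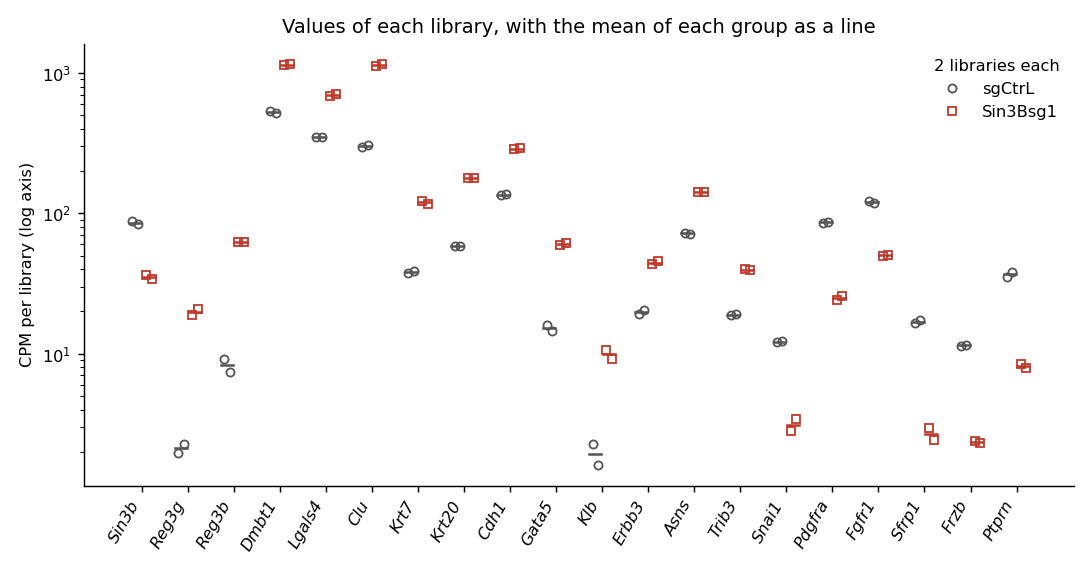
CPM of each library on a log axis for 20 genes named in the text, with 2 sgCtrL libraries as circles, 2 Sin3Bsg1 libraries as squares and the mean of each group as a line. The groups do not overlap for these 20 genes, most of which were chosen for their change, where 63.3% of all genes tested do not overlap, and the replicates lie close together compared with the distance between the groups for Reg3b (9.24 and 7.38 against 62.8 and 62.1 CPM).

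Keratins and cell junction genes rose as well. Keratins are the intermediate filaments of epithelia, and E-cadherin, claudins and desmosome proteins join epithelial cells to each other. In this list 24 of 31 tested genes (77.4%) were higher and 1 was lower, with a median of 0.54 on the log2 scale. Krt7, a keratin of ductal epithelium, was listed at 37.5 and 38.7 CPM in sgCtrL and at 123.1 and 117.3 CPM in Sin3Bsg1, a log2 fold change of 1.66 (SE 0.043, adjusted p = 9.86e-14). Krt20, a keratin of gut surface cells, was listed at 58.3 and 58.5 CPM in sgCtrL and at 178.5 and 179.4 CPM in Sin3Bsg1, a log2 fold change of 1.62 (SE 0.034, adjusted p = 1.13e-14). The E-cadherin gene Cdh1 was listed at 134.8 and 136.6 CPM in sgCtrL and at 285.7 and 289.9 CPM in Sin3Bsg1, a log2 fold change of 1.08 (SE 0.026, adjusted p = 6.26e-14). In all 3 genes the Sin3Bsg1 libraries stood above the sgCtrL libraries. Krt23 rose by 2.24 on the log2 scale, at only 2.97 CPM in Sin3Bsg1, and Krt13, a keratin of stratified epithelium that was named after its value was seen, was the 1 lower gene of the list at -0.80. The keratins of simple epithelium were already among the most abundant transcripts and changed less, with log2 fold changes of 0.32 for Krt8, 0.36 for Krt18 and 0.54 for Krt19, all past the threshold. Because of their abundance Krt19 and Krt8 gained 652 and 577 TPM, and together with S100a6 (a calcium-binding protein, 1119 TPM gained), Clu (949.8 TPM gained) and Lgals4 (511 TPM gained) they were the 5 called genes that gained the most TPM. In the IFNγ experiment without IFNγ, Krt8, Krt19 and S100a6 were at 0.041, 0.045 and 0.088 on the log2 scale and not past the threshold. Clu and Lgals4 were higher there by 1.765 and 0.991.

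Promoters were compared for a motif because repressors of the Snail and Zeb families bind the E-box CAGGTG, a sequence known from the Cdh1 promoter. The windows run from 250 bases before to 50 bases after the start of the canonical transcript in GENCODE vM39 on GRCm39, and at least 99.4% of each set of genes had one. CAGGTG was present on either strand in 29.8% of the 630 promoters of genes higher by 1.5-fold, in 15.6% of the 481 promoters of genes lower by 1.5-fold and in 19.0% of the 14520 promoters of all genes tested. Promoters of the higher genes were also poorer in CpG, with a median of 8 CpG against 11 in the lower genes and 16 over all. Among promoters with 10 CpG or fewer the shares were 25.7% in the higher genes, 11.5% in the lower genes and 20.3% over all. The palindrome CACGTG, the E-box of Max and its partners, was in 5.40% of the promoters of higher genes, 6.24% of those of lower genes and 9.41% of all, and at 10 CpG or fewer in 5.15%, 2.98% and 5.28%. The GATA motif AGATAA was in 11.6% of the higher, 8.73% of the lower and 8.5% of all promoters, and at 10 CpG or fewer in 16.8%, 11.5% and 15.3%. For TTTGAA, the CHR element of cell-cycle genes, the shares were 17.8%, 16.4% and 14.7%, and at 10 CpG or fewer 24.4%, 25.5% and 22.7%. No test was run on these shares, and a match is a string of letters and not a bound site.

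The 250 bases before the start of 4 genes that rose and hold the CAGGTG E-box are shown, 1 ductal keratin and 3 secretory or mucin genes. In these windows the E-box was present in 18 of 56 named higher genes and 9 of 45 named lower genes, among them Snai1, and it was absent from those of Reg3g, Muc4, Krt20 and Gata5, which also rose. No share over all genes was taken for these windows, and many named genes were chosen for their change. Whether Snail proteins act on these genes was not tested. The sequences were taken from RefSeq on GRCm38.p6, which holds 113 of the 157 genes chosen for naming, run 5′ to 3′ on the + strand, and have the E-box (read as CACCTG on this strand) in capitals.
Krt7 (chr15:101412153-101412402): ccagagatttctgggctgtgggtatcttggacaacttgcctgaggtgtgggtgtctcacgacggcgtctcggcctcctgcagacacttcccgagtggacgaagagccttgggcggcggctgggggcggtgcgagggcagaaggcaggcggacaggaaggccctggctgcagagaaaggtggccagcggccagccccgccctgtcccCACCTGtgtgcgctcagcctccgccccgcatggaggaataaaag
Lgals4 (chr7:28833544-28833793): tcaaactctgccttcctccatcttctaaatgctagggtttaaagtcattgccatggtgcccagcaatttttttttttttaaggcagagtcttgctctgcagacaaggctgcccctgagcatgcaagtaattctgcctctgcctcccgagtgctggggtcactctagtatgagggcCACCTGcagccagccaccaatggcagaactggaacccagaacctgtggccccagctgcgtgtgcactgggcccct
Muc1 (chr3:89228806-89229055): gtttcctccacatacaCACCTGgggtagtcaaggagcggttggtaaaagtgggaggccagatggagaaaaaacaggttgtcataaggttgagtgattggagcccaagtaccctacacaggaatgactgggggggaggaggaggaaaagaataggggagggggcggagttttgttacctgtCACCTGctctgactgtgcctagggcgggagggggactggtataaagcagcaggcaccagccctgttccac
Reg3b (chr6:78370635-78370884): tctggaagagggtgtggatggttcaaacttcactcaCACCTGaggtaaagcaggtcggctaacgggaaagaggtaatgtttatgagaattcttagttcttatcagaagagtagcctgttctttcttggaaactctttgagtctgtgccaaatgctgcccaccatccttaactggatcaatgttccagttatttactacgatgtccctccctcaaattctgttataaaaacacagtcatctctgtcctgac

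Mesenchymal and matricellular genes went the other way. Of 28 tested genes of that list, 18 (64.3%) were lower and 2 higher, with a median of -0.20 on the log2 scale. Snai1, a repressor of Cdh1 and of other epithelial genes, was listed at 12.1 and 12.2 CPM in sgCtrL and at 2.83 and 3.40 CPM in Sin3Bsg1, a log2 fold change of -1.97 (SE 0.14, adjusted p = 1.50e-08). Ccn4, a matricellular Wnt target, fell by 1.10 on the log2 scale. The 2 higher genes were Ccn2, a matricellular protein also known as CTGF, from 48.6 ± 0.547 to 106.5 ± 1.41 CPM (log2 fold change 1.13), and S100a4, a calcium-binding protein, by 0.11, although S100a4 did not pass the threshold in the joint fit of both experiments. Spp1, which encodes osteopontin and had the most TPM of the list (4024 in sgCtrL), fell by 0.084.

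The label of a pancreatic tumor cell was checked with markers. Of 10 ductal epithelial markers 9 could be tested, and 8 of them were higher in Sin3Bsg1 and 1 (Spp1) lower, while Cftr had 0 counts in the 4 libraries. Their summed level was 9590 and 9550 TPM in sgCtrL and 11100 and 11300 TPM in Sin3Bsg1. The 11 fibroblast markers summed to 38.0 and 38.2 TPM in sgCtrL and 12.3 and 13.4 TPM in Sin3Bsg1, and 3 of the 6 that could be tested were lower and 0 higher. The growth factor receptor gene Pdgfra held most of that sum. It was listed at 85.8 and 86.5 CPM in sgCtrL and at 24.2 and 25.9 CPM in Sin3Bsg1, a log2 fold change of -1.78 (SE 0.049, adjusted p = 2.14e-13), and Pdgfrb and the collagen gene Col1a1 fell by 1.14 and 1.62. Of the defining fibroblast genes, Dcn had 2 to 6 counts in a library, Lum 0 to 2, Dpt 0 to 4 and Fap 0 to 1. Immune cell markers summed to between 10.3 and 12.2 TPM, nearly all from the lysosomal gene Cd68 (log2 fold change -0.10, adjusted p = 0.662), with 4 of 8 at 0 counts in all 4 libraries. Endothelial markers summed to at most 0.38 TPM, and Vwf, the only one tested, was at -0.98 on the log2 scale (adjusted p = 0.248). Of the 12 acinar and endocrine markers 8 were at 0, and Cela1, an elastase, fell by 0.67 on the log2 scale. Fewer cells with a gene and less transcript per cell cannot be told apart in these bulk libraries.

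**Figure D3:**
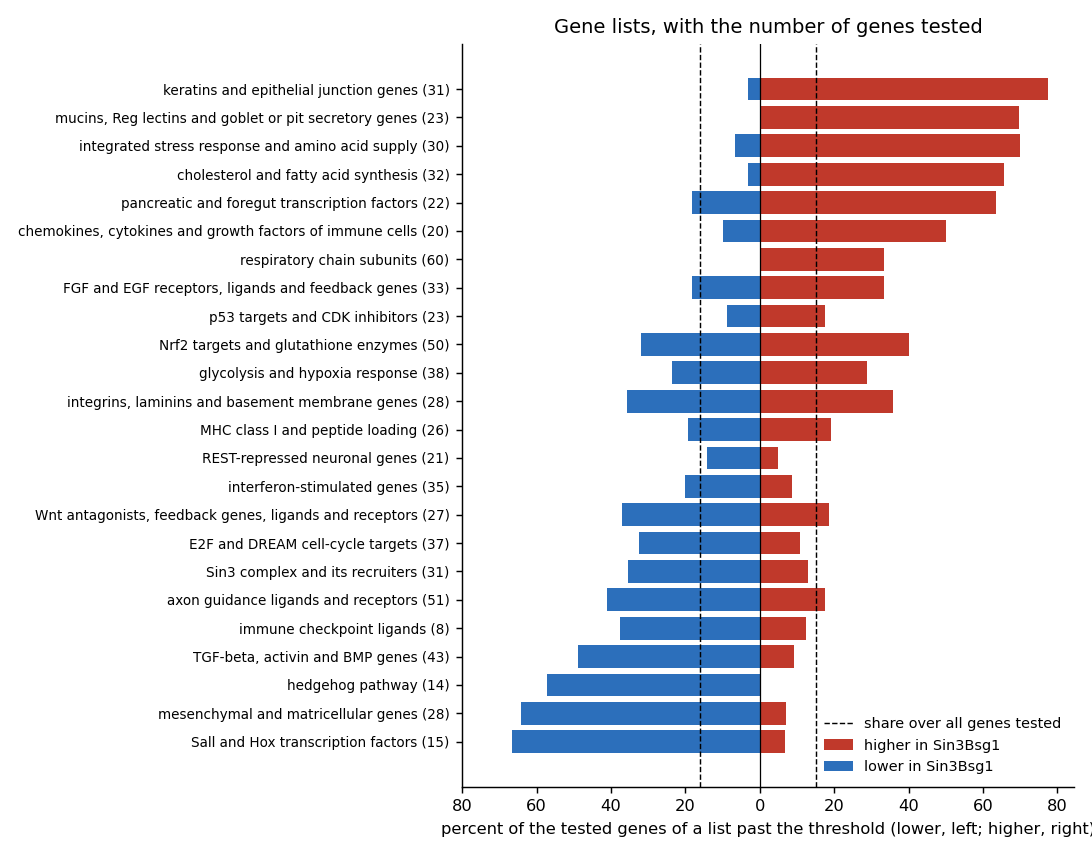
For each of 24 gene lists with 5 or more tested genes, the percent of tested genes past the threshold is drawn, higher in Sin3Bsg1 to the right and lower to the left, with the number tested in parentheses. Dashed lines mark the shares over all genes tested (15.1% higher, 16.0% lower). Keratins and junction genes reach 77.4% higher, and Sall and Hox genes reach 66.7% lower.

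Transcription factors that shape the pancreas and the foregut were mostly higher, with 14 of 22 tested (63.6%) past the threshold upward, 4 downward and a median of 0.34 on the log2 scale. Gata5, a zinc-finger factor of gut and heart, was listed at 16.0 and 14.4 CPM in sgCtrL and at 59.4 and 61.6 CPM in Sin3Bsg1, a log2 fold change of 1.99 (SE 0.063, adjusted p = 1.10e-12). Onecut3, a homeodomain factor of the onecut family, rose by 1.85 on the log2 scale to 2.14 CPM in Sin3Bsg1. Among the more abundant factors, Klf5 of proliferating gut epithelium rose by 0.34 on the log2 scale and the intestinal factor Cdx2 fell by 0.35. The other 3 that fell were Pdx1, the factor of pancreas formation (-0.16, and -0.12 without a call when replicate 2 of sgCtrL was left out), Meis2 (-0.36) and Meis1 (-0.45, with no call without replicate 1 of either group, at -0.36 and -0.43, or with DESeq2). These 3 were named after their values were seen.

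Sall and Hox transcription factors were called lower more often than higher. The tested Sall and Hox genes numbered 15 of the 43 listed, with 22 of the listed genes at 3 counts or fewer in every library. Of the 15, 10 (66.7%) were lower and 1 higher, with a median of -0.60 on the log2 scale, and without replicate 1 of sgCtrL 6 were lower, with DESeq2 5. Sall1, a zinc-finger repressor, was listed at 2.75 and 3.40 CPM in sgCtrL and at 0.311 and 0.453 CPM in Sin3Bsg1, a log2 fold change of -2.999 (SE 0.34, adjusted p = 3.45e-06). Hoxd4 was the only gene with a symbol of its own that went from at least 1 CPM in both sgCtrL libraries to 3 counts or fewer in both Sin3Bsg1 libraries. It had 37 and 45 counts in sgCtrL and 1 and 0 counts in Sin3Bsg1, a ratio of 86.9 at equal depth with a 95% exact interval of 15.2 to 3475 for counting error only. No such gene went the opposite way. Sall2 and Hoxa3, the most abundant of the list, fell by 0.51 and 0.60 on the log2 scale, and Hoxb8 by 1.25. The change of Hoxb8 was -1.10 without replicate 1 of sgCtrL and -1.0 without replicate 2 of Sin3Bsg1 and did not pass the threshold in either case or with DESeq2. Hoxa13, a factor of the hind end of the body axis, was the exception and rose from 3.70 ± 0.296 to 6.30 ± 0.476 CPM.

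Among signaling pathways of development, hedgehog and TGF-beta genes were called lower more often than higher. Hedgehog ligands release the transcription factors of the Gli family from inhibition through the receptor Ptch, with Boc and Gas1 as co-receptors. In this pathway 8 of 14 tested genes (57.1%) were lower and 0 higher (the highest was at 0.22 on the log2 scale), with a median of -0.37, which was -0.61 without replicate 1 of Sin3Bsg1. Gas1 was listed at 91.2 and 89.7 CPM in sgCtrL and at 51.2 and 45.6 CPM in Sin3Bsg1, a log2 fold change of -0.90 (SE 0.049, adjusted p = 8.08e-10). Boc and Gli3 fell by 1.51 and 0.94 at 3.13 and 3.69 CPM in sgCtrL, although Gli3 was at -0.70 and no longer past the threshold without replicate 2 of sgCtrL.

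Wnt proteins act through Fzd receptors and are held back outside the cell by antagonists of the Sfrp type. Of 27 tested genes of the list 10 (37.0%) were lower and 5 higher (3 higher without replicate 2 of Sin3Bsg1), with a median of -0.11 on the log2 scale that was -0.21 without that library and -0.22 without replicate 1 of sgCtrL. Over all genes tested 16.0% were lower and 15.1% higher, the latter near the 18.5% of this list. Sfrp1 had the largest fall of the called genes with at least 5 CPM on average whose groups did not overlap. Predicted gene models and pseudogenes were left out of this ranking. Sfrp1 went from 16.5 and 17.3 CPM in sgCtrL to 2.96 and 2.43 CPM in Sin3Bsg1, a log2 fold change of -2.64 (SE 0.13, adjusted p = 1.95e-10). Frzb, an antagonist of the same family, was listed at 11.4 and 11.6 CPM in sgCtrL and at 2.40 and 2.30 CPM in Sin3Bsg1, a log2 fold change of -2.29 (SE 0.14, adjusted p = 3.70e-09). The ligand gene Wnt5a fell by 1.31 at 1.77 CPM in sgCtrL, and was at -1.19 and not past the threshold without replicate 1 of sgCtrL. Fzd5, a Wnt receptor of gut epithelium, rose from 113.6 ± 3.03 to 218.9 ± 0.749 CPM, or by 0.95 on the log2 scale. The other 4 that rose, named after their values were seen, were the R-spondin receptors Lgr4 (0.38) and Lgr5 (1.42, at 1.27 CPM in Sin3Bsg1), the ligand gene Wnt7b (0.70) and the receptor gene Fzd8 (0.50). Lgr5 was at 1.16 and 1.33 and Fzd8 at 0.36 and 0.49 without replicate 2 of Sin3Bsg1 and of sgCtrL, and neither passed the threshold there or with DESeq2, nor did Fzd8 (0.498) without replicate 1 of sgCtrL.

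In the list of TGF-beta, activin and BMP genes 21 of 43 tested (48.8%) were lower and 4 (9.3%) higher, against 16.0% and 15.1% of all genes tested. The median was -0.15 on the log2 scale. Tgfbr3, a co-receptor, was listed at 48.1 and 48.7 CPM in sgCtrL and at 21.6 and 21.8 CPM in Sin3Bsg1, a log2 fold change of -1.16 (SE 0.058, adjusted p = 2.80e-10). The follistatin-like Fstl1 fell by 1.33. Grem1, a secreted BMP antagonist with 499 TPM in sgCtrL, fell by 0.40 and the ligand gene Bmp6 rose by 1.68 to 2.87 CPM. The activin subunit gene Inhba (0.55), the receptor gene Tgfbr2 (0.21) and the signal carrier Smad3 (0.094), named after their values were seen, were the other 3 that rose, and Smad3 was not past the threshold without replicate 2 of sgCtrL (0.065) or of Sin3Bsg1 (0.056) or with DESeq2.

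The list of FGF and EGF receptors, ligands and feedback genes went both ways. It had 11 of 33 tested genes (33.3%) higher and 6 (18.2%) lower (3 with DESeq2), with a median of 0.024 on the log2 scale. Over all genes tested the shares were 15.1% and 16.0%. Fgfr1, an FGF receptor of mesenchymal cells, was listed at 122.2 and 119.2 CPM in sgCtrL and at 49.4 and 50.9 CPM in Sin3Bsg1, a log2 fold change of -1.27 (SE 0.039, adjusted p = 6.81e-13). Klb encodes beta-Klotho, a co-receptor for some of the endocrine FGFs. It was listed at 2.29 and 1.60 CPM in sgCtrL and at 10.6 and 9.23 CPM in Sin3Bsg1, a log2 fold change of 2.35 (SE 0.18, adjusted p = 3.64e-08). Erbb3, a neuregulin receptor of epithelia, rose by 1.16 on the log2 scale, from 19.8 ± 0.942 to 44.5 ± 1.67 CPM.

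Among genes of nerve cells few were called, and axon guidance genes were called lower more often than higher. Of the REST-repressed neuronal genes 21 of 41 could be tested, and 3 were lower and 1 higher, so that 14.3% were lower where 16.0% of all genes were. Tubb3, a neuronal tubulin, fell by 0.53 on the log2 scale, the synaptic gene Snap25 by 0.58 and the vesicle protein gene Sv2a by 0.56. The 1 higher gene, Grin1, a glutamate receptor subunit named after its value was seen, went from 0.305 to 1.18 CPM, and was not past the threshold (1.65) without replicate 2 of Sin3Bsg1. Ptprn, a receptor-like phosphatase of dense-core secretory vesicles, was among the 6 largest falls of genes with 5 CPM or more whose groups did not overlap, gene models and pseudogenes left out. It went from 35.1 and 38.2 CPM in sgCtrL to 8.44 and 7.90 CPM in Sin3Bsg1, a log2 fold change of -2.17 (SE 0.085, adjusted p = 1.50e-11). Axon guidance ligands and receptors, which also steer other cells, were lower in 21 of 51 tested (41.2%) and higher in 9 (17.6%). Over all genes tested these shares were 16.0% and 15.1%. The median of the list was -0.19. The receptor gene Ephb2 fell by 1.25 and the ligand gene Ntn1 by 1.47, while the semaphorin Sema4g rose from 49.4 and 43.2 CPM to 122.1 and 118.0 CPM, a log2 fold change of 1.37 (SE 0.050, adjusted p = 6.51e-12).

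Integrins and laminins tie epithelial cells to the basement membrane. In this list 10 of 28 tested genes (35.7%) were higher and 10 (35.7%) lower, against 15.1% and 16.0% of all genes tested. Itga1, an integrin subunit for collagen, was listed at 9.27 and 10.2 CPM in sgCtrL and at 34.1 and 37.0 CPM in Sin3Bsg1, a log2 fold change of 1.87 (SE 0.084, adjusted p = 7.40e-11). Lama3, a chain of the epithelial laminin, fell by 2.23 on the log2 scale, from 5.31 ± 0.669 to 1.13 ± 0.144 CPM.

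Of the 12 largest rises among genes with 5 CPM or more on average, gene models and pseudogenes left out, 7 are described here. All were chosen by the size of their change. Cfb, complement factor B of the alternative pathway, was listed at 4.70 and 2.14 CPM in sgCtrL and at 15.3 and 17.6 CPM in Sin3Bsg1, a log2 fold change of 2.26 (SE 0.20, adjusted p = 2.94e-07). Lbp, the lipopolysaccharide-binding protein, was listed at 5.21 and 4.90 CPM in sgCtrL and at 21.4 and 21.6 CPM in Sin3Bsg1, a log2 fold change of 2.09 (SE 0.10, adjusted p = 1.685e-10). Clu encodes clusterin, a secreted chaperone, and was the most abundant of the 12, at 296.8 and 308.9 CPM in sgCtrL and 1125 and 1157 CPM in Sin3Bsg1, a log2 fold change of 1.91 (SE 0.023, adjusted p = 9.78e-18). The anion transporter Slc26a9 and the ferritin receptor Scara5 rose by 2.20 and 1.92 on the log2 scale. Pilra and Pilrb2, of a family of paired immunoglobulin-like receptors that resemble each other in sequence, rose by 1.83 and 1.82. Lsp1, an actin-binding protein of leukocytes, fell by 1.97.

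Genes by which tumor cells meet immune cells went both ways. In the list of MHC class I and peptide loading genes 5 of 26 tested were higher and 5 lower. That is 19.2% in each direction, near the 15.1% higher and 16.0% lower of all genes tested. The median was 0.022 on the log2 scale. Without replicate 1 of sgCtrL 3 were higher, and without replicate 2 of either group 3 were lower. H2-D1, a classical heavy chain, rose from 82.3 and 80.8 to 121.3 and 122.5 CPM, a log2 fold change of 0.58 (SE 0.034, adjusted p = 2.065e-09), and the non-classical H2-T23 and H2-Q4 rose by 0.835 and 0.76. H2 genes resemble each other, so their reads could have been split. B2m, the light chain that all of them need, fell from 114.4 to 89.6 CPM or by 0.35, and the classical H2-K1 rose by 0.57, both named after their values were seen. The other called genes, also named afterwards, were Psme2 (0.145), Tapbp (-0.11), Canx (-0.067), Calr (-0.057) and H2-M3 (-0.565), and each lost its call without at least 1 library. These were replicate 2 of sgCtrL for Calr (-0.046) and Tapbp (-0.057), replicate 1 of sgCtrL for Canx (-0.066), replicate 2 of Sin3Bsg1 for H2-M3 (-0.43) and Calr (-0.048), replicate 1 of Sin3Bsg1 for Tapbp (-0.082), and any of the 4 for Psme2 (0.13 to 0.16). H2-Q4 was at 0.535 and not past the threshold without replicate 1 of sgCtrL. Among 35 tested interferon-stimulated genes 7 (20%) were lower and 3 (8.57%) higher, against 16.0% and 15.1% of all genes tested, with a median of -0.18. The GTPase gene Iigp1 fell from 47.7 ± 2.003 to 20.8 ± 2.53 CPM and Sting1, the adaptor of cytosolic DNA sensing, from 50.6 ± 0.569 to 25.1 ± 1.37 CPM, log2 fold changes of -1.20 and -1.01, and Oasl1 rose by 0.73. The other 2 that rose were Trim25 (0.22) and, named after its value was seen, Bst2 (0.36, with no call in DESeq2). Chemokine and cytokine genes were higher in 10 of 20 tested, 7 of them by 1.5-fold or more, and lower in 2, with a median of 0.45. Cx3cl1, a membrane-bound chemokine, rose by 0.85 on the log2 scale and the cytokine gene Lif by 0.70. The 2 that fell were Mif (-0.15) and, named after its value was seen, the macrophage growth factor gene Csf1 (-0.26). Il15 had a change of 1.33 but only 0.691 ± 0.496 CPM in sgCtrL, and it was at 0.75 and 1.11, not past the threshold, without replicate 2 of sgCtrL or of Sin3Bsg1, and had no call with DESeq2. Of 8 tested checkpoint ligands 3 (37.5%) were lower and 1 (12.5%) higher, against 16.0% and 15.1% of all genes tested. Their median was -0.18 (-0.28 without replicate 1 of Sin3Bsg1). Cd276 fell by 0.52 and Cd47 by 0.20, Lgals9 rose by 0.36, and Cd274, the PD-L1 gene, was at -0.55 (adjusted p = 0.0155), with -0.38 and -0.42 and no call without replicate 1 of sgCtrL or of Sin3Bsg1, and no call with DESeq2.

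Many stress response and lipid synthesis genes were higher. ATF4 is the factor that the integrated stress response switches on when amino acids run short or proteins misfold. Its targets and the amino acid supply genes were higher in 21 of 30 tested (70.0%) and lower in 2, with a median of 0.33 on the log2 scale, and 9 rose by 1.5-fold or more. Asns, which makes asparagine, was listed at 72.3 and 71.7 CPM in sgCtrL and at 141.8 and 141.2 CPM in Sin3Bsg1, a log2 fold change of 0.97 (SE 0.034, adjusted p = 3.515e-12). Trib3, a pseudokinase induced by ATF4, and Chac1, which breaks down glutathione, rose by 1.07 and 1.32, and Atf4 itself by 0.45. The 2 that fell, named after their values were seen, were Cebpb (-0.535), a factor that pairs with ATF4, and Gdf15 (-0.225), a stress hormone. Cholesterol and fatty acid synthesis genes were higher in 21 of 32 tested (65.6%) and lower in 1, with a median of 0.19, and 4 rose by 1.5-fold or more. Tm7sf2 and Idi1, enzymes of sterol synthesis, rose by 0.82 and 0.64, and Scd2, a fatty acid desaturase with 752 TPM in sgCtrL, by 0.19.

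The list of Nrf2 targets and glutathione enzymes split, with 20 of 50 tested higher and 16 (32.0%) lower and a median of 0.023 on the log2 scale. Gsta3, a glutathione transferase, rose from 0.336 and 0.817 CPM to 4.55 and 4.34 CPM, a log2 fold change of 2.94 (SE 0.31, adjusted p = 1.55e-06), and the gut glutathione peroxidase gene Gpx2 by 2.05. The secreted peroxidase gene Gpx3 fell by 1.10 and the ferritin gene Fth1, at 6274 TPM in sgCtrL, by 0.25. Respiratory chain subunits were higher in 20 of 60 tested (33.3%, 13 genes with DESeq2) and lower in 0 (the lowest was at -0.096), yet the highest was at 0.31. Cox5a and Cox8a rose by 0.27 and 0.13 on the log2 scale, and Cox8a had no call in the joint fit of both experiments. In the list of glycolysis and hypoxia genes 11 of 38 were higher (7 without replicate 1 of sgCtrL) and 9 lower. The shares of this list were 28.9% higher and 23.7% lower, against 15.1% and 16.0% of all genes tested. The lactate carrier gene Slc16a1 fell by 0.40 and the carbonic anhydrase gene Car12 by 0.69.

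The genes that SIN3B is best known to control moved little. Among 37 E2F and DREAM targets 12 (32.4%) were lower and 4 higher (2 without either sgCtrL replicate), but the changes ran only from -0.26 (Tyms, thymidylate synthase) to 0.20 (Rbl1, a pocket protein) on the log2 scale, and Pcna was at -0.006 (adjusted p = 0.873), with 0.004 without replicate 2 of either group. Of other higher genes, named after their values were seen, Uhrf1 was at 0.16, and Mcm3 at 0.073 but with no call without replicate 2 of Sin3Bsg1 (0.063), replicate 1 (0.071) or 2 (0.075) of sgCtrL, or with DESeq2. Of 23 tested p53 targets and CDK inhibitors 4 were higher (2 without replicate 2 of sgCtrL) and 2 lower (1 without any one of the libraries). With DESeq2 the counts were 2 and 1. With edgeR 17.4% of these were higher and 8.7% lower, and of the E2F and DREAM targets 10.8% and 32.4%. Over all genes tested the shares were 15.1% and 16.0%. Perp, a desmosomal p53 target, rose from 8.84 and 8.17 to 21.3 and 21.3 CPM, a log2 fold change of 1.33 (SE 0.092, adjusted p = 1.29e-08), Plk2 rose by 0.68, and Sesn1 fell by 0.39. The other 3 called genes, named after their values were seen, were the CDK inhibitor genes Cdkn2b (0.13) and Cdkn2c (-0.12) and Tigar (0.29), and none of them was called with DESeq2. Tigar also lost its call without replicate 2 of sgCtrL (0.24), Cdkn2b without replicate 1 of Sin3Bsg1 (0.12) or replicate 1 (0.135) or 2 (0.13) of sgCtrL, and Cdkn2c without any one of the 4 libraries (-0.11 to -0.14). Cdkn2a and Trp53 were at 0.021 (adjusted p = 0.567) and 0.071 (adjusted p = 0.0555), and Trp53 passed the threshold at 0.097 without replicate 2 of Sin3Bsg1. Of 36 germline and meiosis genes 29 had 3 counts or fewer in every library and 1 could be tested.

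Other subunits of the SIN3 complex and its recruiters changed by less than Sin3b. Of 31 tested genes 11 were lower, Sin3b included (7 without replicate 2 of sgCtrL), and 4 higher, and the median of -0.061 on the log2 scale was close to 0. The shares of the list were 35.5% lower and 12.9% higher, against 16.0% and 15.1% of all genes tested. The deacetylase genes Hdac1 and Hdac2 fell by 0.13 and 0.14 on the log2 scale, Suds3, a core subunit, by 0.22 and Mnt, a Max partner, by 0.26. Mxd4, also a Max partner, fell by 0.255, Brms1l by 0.22, Sap130 by 0.14, and Rbbp7, Gatad1 and Morf4l1 each by 0.10. Mxd1, another Max partner, rose by 0.35, Arid4a by 0.35, Sap30 by 0.29 and the glycosyltransferase gene Ogt by 0.17. Without replicate 2 of sgCtrL no call was made for Hdac2 (-0.099), Mxd1 (0.30), Gatad1 (-0.082), Sap130 (-0.13), Rbbp7 (-0.088) and Morf4l1 (-0.080). The same held without replicate 2 of Sin3Bsg1 for Hdac2 (-0.11), Sap30 (0.15), Gatad1 (-0.071) and Brms1l (-0.16), and without replicate 1 of Sin3Bsg1 for Sap130 (-0.095). DESeq2 did not call Mxd1, Hdac2 and Sap130, and the joint fit of both experiments did not call Hdac1 and Gatad1.

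Whether these changes recur was read from the cytokine-free libraries of the IFNγ experiment, which share no library with the untreated experiment. There 2568 of 14913 genes (17.2%) passed the threshold between Sin3Bsg1 and sgCtrL in the fit of all 12 libraries, 1177 (7.89%) higher and 1391 (9.33%) lower, and Sin3b fell by 1.24 on the log2 scale. Of the 13848 genes tested in both, 1331 were called in the same direction, which is 29.9% of the 4456 untreated calls and 53.9% of the 2469 calls of the other experiment, and 156 were called in opposite directions. When the 6 libraries without IFNγ were fitted alone, 3996 of 14226 genes passed, 1839 were called in the same direction (41.6% of the untreated and 47.4% of the other calls) and 258 in opposite directions. The log2 fold changes had a Pearson r of 0.32 and a Spearman rho of 0.36 across these genes, which are not independent replicates. Among 585 genes higher by 1.5-fold in the untreated cells, 280 (47.9%) were called higher in the other experiment and 13 lower, 84.8% had the same sign, and the median was 1.0 in the untreated cells and 0.53 in the other. Among 461 genes lower by 1.5-fold, 202 (43.8%) were called lower and 29 higher, 79.6% had the same sign, and the medians were -0.93 and -0.32. Over all genes tested in both, 63.1% had the same sign. With the fit of 6 libraries the shares called the same way were 54.3% of the higher and 50% of the lower genes.

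The 10 genes higher in both with the largest smaller change were Reg3b, Reg3g, Clu, Pik3ap1, Myom3, Acsm3, Cfb, Pilrb1, Otop3 and Pilra. Reg3b was higher by 2.91 and 2.52 on the log2 scale in the untreated and the other experiment, Reg3g by 3.23 and 2.19 and Clu by 1.91 and 1.76. Pik3ap1, an adaptor of PI3K signaling, was higher by 1.69 and 2.12, the sarcomere gene Myom3 by 1.51 and 1.85, Acsm3, a medium-chain acyl-CoA synthetase, by 1.49 and 1.47, and Otop3, a proton channel, by 1.55 and 1.36. Pilrb1 was higher by 1.76 and 1.39, Cfb by 2.26 and 1.38 and Pilra by 1.83 and 1.29. The gene lists were read in the other experiment without a test of the difference per list. The secretory list had 13 of 22 tested genes higher and 2 lower there with a median of 0.50 on the log2 scale, keratins and junction genes 12 of 29 higher and 2 lower with 0.18, and the foregut factors 11 of 22 higher and 1 lower with 0.18. The stress response list had 4 of 30 higher and the sterol list 2 of 32 higher and 5 lower, with medians of 0.105 and -0.006. On the other side, Sall and Hox genes had 5 of 15 lower with a median of -0.31, hedgehog genes 4 of 14 lower with -0.046, and mesenchymal genes 9 of 26 lower and 4 higher with -0.093. Among the other pathway lists with at least 8 tested genes, the medians there lay between -0.12 for checkpoint ligands and Nrf2 targets and 0.20 for interferon-stimulated genes, of which 10 of 35 were higher and 4 lower. MHC class I and peptide loading genes had 9 of 25 higher and 0 lower there with a median of 0.16, where 7.89% and 9.33% of all genes were. In the TGF-beta, activin and BMP list 7 of 40 were lower and 4 higher with 0.03. Axon guidance genes had 12 of 50 lower and 11 higher with -0.022.

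The difference between the experiments was itself tested in 1 model over the 10 libraries, and 2076 of 15264 genes (13.6%) passed. It passed for 244 of the 585 higher genes, with a smaller or opposite change in the IFNγ experiment for 222 of them, and for 218 of the 461 lower genes, with a smaller or opposite change for 209. These genes were chosen for a large change in the untreated cells, which by itself favors a smaller one elsewhere. Of 401 genes chosen for being called higher by 1.5-fold in the IFNγ experiment, the difference passed for 164, with a smaller or opposite change in the untreated cells for 118, and of 305 chosen as lower it passed for 125, with 109 smaller or opposite. Their medians were 1.003 and -0.94 in the IFNγ experiment and 0.74 and -0.50 in the untreated cells. Itga1 was higher by 1.87 in the untreated cells and at -0.077 in the other, a difference of -1.94 (adjusted p = 4.15e-10). Snai1 was at -1.97 and -0.014, a difference of 1.96 (adjusted p = 9.505e-08), and Frzb at -2.29 and 0.35, a difference of 2.65 (adjusted p = 4.78e-10). Col1a1 was lower by 1.62 in one and higher by 1.37 in the other, a difference of 2.99 (adjusted p = 1.38e-12). Sall1 (-2.999 and -3.01), Lgals4 (0.99 and 0.99) and Iigp1 (-1.20 and -1.28) had differences of -0.003, 0.005 and -0.072, none past the threshold. The experiments are separate tables with their own totals, and what else differed between them is not given in the sources used here.

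**Figure D4:**
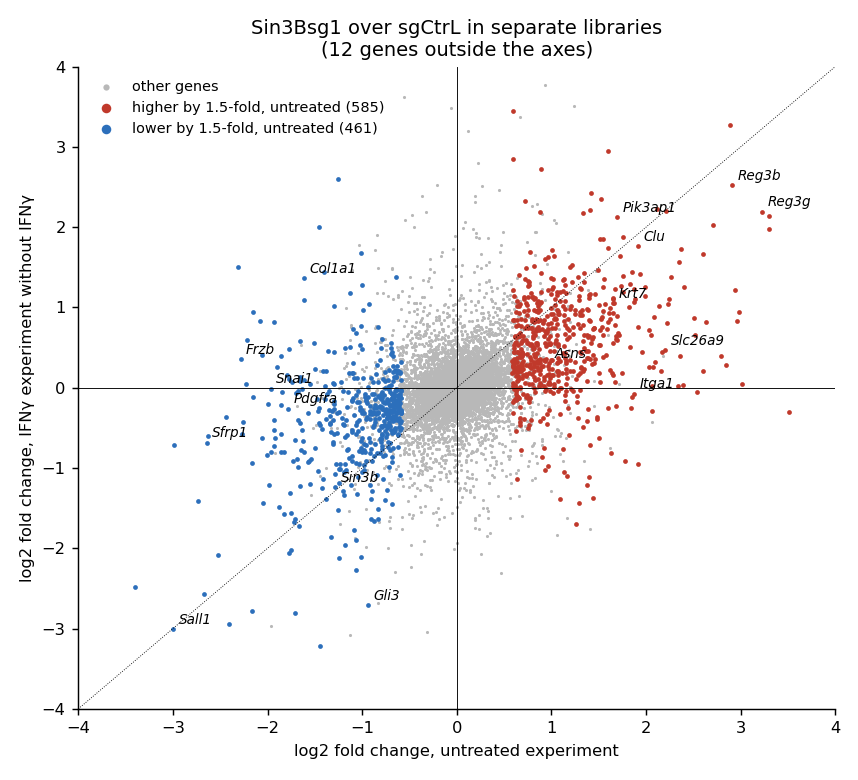
The log2 fold change of Sin3Bsg1 over sgCtrL without IFNγ is plotted for the IFNγ experiment against the untreated experiment, with 1 point for each of 13848 genes tested in both, a dotted line of equal change and 12 genes outside the axes. The 585 genes higher by 1.5-fold in the untreated cells lie mostly above 0 and mostly below the dotted line (median 0.53 against 1.0).

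The changes were not spread evenly over the chromosomes, which were taken from GENCODE vM39 on GRCm39. On chromosome 5 the median log2 fold change over 966 tested genes was -0.10, with 31.2% of the genes lower and 8.28% higher past the threshold. Chromosome 16 had a median of -0.070 over 446 genes, with 29.4% lower and 8.07% higher, and chromosome 19 a median of 0.072 over 513 genes, with 27.7% higher and 10.7% lower. The medians of the other 17 chromosomes lay between -0.020 and 0.041. In stretches of 40 neighboring tested genes, 23 of 24 stretches on chromosome 5 and all 11 on chromosome 16 had a median below 0, and all 12 on chromosome 19 had one above 0. These 3 chromosomes, which were picked after their medians were seen, held 745 of the 4543 calls. Without them 1952 genes were higher and 1846 lower, and at 1.5-fold 552 and 415. In the IFNγ experiment without IFNγ the medians were -0.073 on chromosome 5, -0.11 on chromosome 16, -0.039 on chromosome 19 and 0.16 on chromosome 14. Among the named genes, Suds3, Mxd4, Gatad1, Tyms and Spp1, which fell, lie on chromosome 5, as do Klb, Pilra and Oasl1, which rose. Gatad1 (-0.099) was close to the median of that chromosome. The part of chromosome dosage in these values was not tested.

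**Figure D5:**
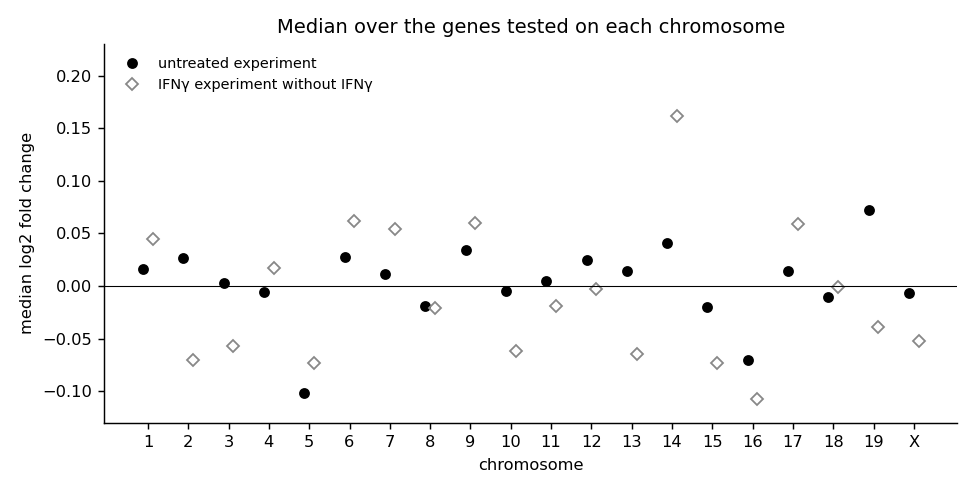
Median log2 fold change of Sin3Bsg1 over sgCtrL for the tested genes of each chromosome, with filled points for the untreated experiment and open diamonds for the IFNγ experiment without IFNγ. In the untreated experiment chromosomes 5 (-0.10) and 16 (-0.070) lie lowest and chromosome 19 (0.072) highest.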

How the data were processed

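RNA-seq of total RNA was analysed from 4 untreated KPC1199 libraries, with the 6 cytokine-free libraries of the IFNγ experiment for comparison. For each experiment the authors deposited a table of estimated counts per gene and library, not normalized (55738 and 56980 features). The methods of the study name HISAT2, mouse mm9, unique reads and featureCounts, whereas the submitters' processing notes name fastp, HISAT2, StringTie, DESeq2 and mm39. The tables give no coordinates, so this conflict could not be settled, and strand setting and versions are not given in the sources used here. The deposited group means were checked against their replicates and left out. Columns headed lacZ were read as sgCtrL, since the tables used here hold columns for only this guide and Sin3Bsg1. From the untreated counts, 324 assembled loci without a gene name (0.615 to 0.677% of counts) were dropped before totals and tests.

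Counts were rounded, scaled by TMM and tested with edgeR 4.0.16 in R 4.3.3 (filterByExpr, glmQLFit and glmQLFTest, two-sided, Benjamini-Hochberg over all genes tested, threshold 0.05). SE is the absolute log2 fold change over the square root of F. In the IFNγ experiment all 12 libraries entered the fit, with a mean per group, and the difference between experiments as an interaction over the 10 libraries without IFNγ. CPM are per 1000000 counts after TMM scaling, and TPM were computed from the counts and deposited gene lengths. Scripts were tested on simulated data. Alternatives were DESeq2 1.42.0, limma voom (limma 3.58.1), other scaling and filters, a replicate block and leaving out each library. Replicates differed by more than sampling noise (chi-square per gene from 2.43 to 4.12). Promoter windows and the guide site were read from GRCm39 with GENCODE vM39. Tables were made with Python 3.11.15 and pandas 2.3.3, and plots with matplotlib 3.10.9.

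The comparison and the 30 gene lists were chosen with earlier results of these data known. Named genes are Sin3 list members past the threshold, the 12 genes that rose most and the 6 that fell most of those with 5 CPM or more on average whose groups did not overlap, genes leaving or reaching 3 counts, the 5 largest gains in TPM, up to 3 called (mean of at least 1 CPM) and 2 most abundant members of each list, 10 genes higher in both experiments and the 5 largest differences between them. Predicted gene models and pseudogenes were left out of the first of these rules on size. The rule took 157 genes, not all of which are reported here, and genes named after their values were seen are marked as such. Markers given by counts were fixed as a list.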

Additional observations from a re-analysis of the deposited data

Results flagged for a closer look

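The change between Sin3Bsg1 and sgCtrL differed between the untreated experiment and the IFNγ experiment without IFNγ for 2076 genes, by the interaction test of edgeR over the 10 libraries at an adjusted p under 0.05. Those named in the report are given here with the difference, which is the log2 fold change in the IFNγ experiment minus that in the untreated experiment. A negative difference therefore means that the change was lower in the IFNγ experiment.

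Genes higher in the untreated knockout that had a smaller or opposite change in the other experiment were Itga1 (-1.94), Slc26a9 (-1.72), Gsta3 (-1.71), Gpx2 (-1.39), Lbp (-1.19), Scara5 (-1.15), Chac1 (-1.05), Reg3g (-1.02), Cfb (-0.88), Gata5 (-0.83), Pilrb2 (-0.80), Muc4 (-0.80), Wnt7b (-0.77), Trib3 (-0.74), Muc1 (-0.69), Dmbt1 (-0.68), Asns (-0.66), Krt20 (-0.61), Krt7 (-0.60), Fzd5 (-0.58), Tm7sf2 (-0.54), Idi1 (-0.54), Krt19 (-0.48), S100a6 (-0.45), Erbb3 (-0.41), S100a4 (-0.39), Sema4g (-0.38), Atf4 (-0.38), Rbl1 (-0.34), Ccn2 (-0.29), Lgr4 (-0.29), Cox8a (-0.28), Krt8 (-0.27), Scd2 (-0.26), Cox5a (-0.26), Arid4a (-0.26), Cdkn2b (-0.25), Tgfbr2 (-0.23), Lgals9 (-0.20), Krt18 (-0.185), Cdh1 (-0.16), Clu (-0.14) and Mcm3 (-0.14). Genes lower in the untreated knockout with a smaller or opposite change in the other experiment were Col1a1 (2.99), Frzb (2.645), Lama3 (2.29), Boc (2.07), Sfrp1 (1.97), Snai1 (1.96), Gpx3 (1.83), Pdgfra (1.53), Pdgfrb (1.34), Ptprn (1.23), Ntn1 (1.18), Lsp1 (1.18), Car12 (1.115), Ccn4 (0.98), Ephb2 (0.95), H2-M3 (0.91), Hoxa3 (0.79), Csf1 (0.72), Fgfr1 (0.71), Gas1 (0.60), Tgfbr3 (0.57), Sall2 (0.47), Gdf15 (0.455), Sting1 (0.35), Meis2 (0.33), Cd276 (0.32), B2m (0.305), Spp1 (0.295), Mxd4 (0.275), Tapbp (0.24), Sap130 (0.21), Slc16a1 (0.18) and Cdx2 (0.14). A change in the same direction that was larger in the other experiment was seen for Klf5 (0.40), H2-K1 (0.37), Gli3 (-1.76) and Fstl1 (-0.53). Differences were also found for Hoxd4 (5.17), with 1 count in all in the untreated knockout libraries, for Hhip, a hedgehog-binding protein (-2.72), and for the gene models Gm45234 (-10.08) and 2700099C18Rik (4.69), the largest differences in size among the genes with at least 5 CPM. What else differed between the experiments was not tested.

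The 324 assembled loci without a gene name, which entered no comparison, held 0.617% of the counts in the sgCtrL libraries and 0.676% in the Sin3Bsg1 libraries. Of these loci 88 were higher and 56 lower in Sin3Bsg1 without overlap of the groups. The share of 63.3% without overlap is over tested genes, which had passed the filter on low counts, unlike these loci. The 5 loci that gained most held 61.6% of the gain.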

How the results depend on the processing

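The count of genes past the threshold (4543) was 3056 with DESeq2, 1465 of them higher, against 2210 higher with edgeR. It lay between 3772 and 4559 with limma voom, RLE size factors, no filter on low counts, at least 10 counts in every library and the joint fit of both experiments, and between 3645 and 4221 when 1 library was left out, where the lone library of a group is assumed to vary like the other group. The genes higher ran from 1778 to 2069 and the genes lower from 1867 to 2152 over those 4 fits, and those past 1.5-fold from 592 to 596 higher and from 418 to 508 lower. With RLE size factors 2192 genes were higher and 2351 lower. In the IFNγ experiment without IFNγ the count (2568) was 3996 when only the 6 libraries without IFNγ were fitted, and 1864 to 2066 without 1 library. The difference between experiments (2076 genes) ran from 1391 to 2363 without 1 library and from 1814 to 2410 with other tools, scaling or filters. The calls shared in direction (1331) ran from 1200 to 1275 without 1 untreated library, and were 1135 with DESeq2, 1326 with at least 10 counts in every library and, added after seeing the data, 1839 with the 6 libraries without IFNγ alone. The cause of these shifts was not tested.

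Same-numbered libraries did not deviate together (r = 0.0129 in the untreated experiment and -0.0105 to -0.0328 in the other), so the numbers do not pair the libraries. With the number as a replicate block 4675 genes passed, 2284 higher and 2391 lower.

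Over the alternatives, 1611 values of the named genes kept direction and side of the threshold, 87 kept direction but missed the threshold, 2 newly passed it and 2 changed sign. The sign changes were those of Pcna, which was at -0.006 and ran from -0.017 to 0.004 when 1 library was left out, with 0.004 without replicate 2 of Sin3Bsg1 or of sgCtrL. Among the gene lists, the median of the germline and meiosis genes, with 1 tested, moved most. The median of the fibroblast markers, with 6 tested, went from -0.95 to -1.62 with at least 10 counts in every library. Of the 3648 genes with the lowest TPM 15.2% were called, and of the 3647 with the highest 47.2%.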
